A study of Mus musculus with 36 samples.

Results

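The sites described here are promoter peaks of the nucleosome remodeling and deacetylase complex (NuRD) in mouse neural progenitor cells (NPCs). A site was an NPC MBD3 peak that overlapped an NPC CHD4 peak by at least 1 bp and whose midpoint lay within 1 kb of the transcription start site (TSS) of a protein-coding gene. Members were therefore chosen by measured values, the peak calls of MBD3 and CHD4 in NPCs, and those calls are described without a test. The rule gave 318 sites out of 2304 NPC MBD3 peaks, and out of 104813 peaks in the 9 lists analysed. These sites lay at the promoters of 322 genes, 1.44% of 22359 protein-coding genes.

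The study mapped NuRD, SIN3A and ZFP296 by ChIP-seq, which sequences the DNA that comes down with an antibody against a chromatin protein. The NPCs were differentiated from wild-type R1 embryonic stem cells (ESCs) and kept in NPC medium, and MBD3 and CHD4 were each profiled there in 1 library. The ESC lists came from wild-type R1 ESCs in serum and LIF with 2i, the pair of kinase inhibitors that holds ESCs in a ground state. They comprised MBD3 and CHD4 in 2 replicates each and SIN3A from preparations without and with spike-in chromatin. The seventh ESC list was a GFP ChIP in a line labelled ZFP296-BAC R1, which carries tagged ZFP296 from a bacterial artificial chromosome, in the same medium. Its label and the study's methods differ, since the methods give KH2 ESCs with a GFP-ZFP296 construct. By the labels all other cells were wild type. No list for a marker of the neural state was among those analysed, so the NPC label was not checked against its own markers.

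MBD3 is the methyl-CpG-binding-domain subunit that holds NuRD together, and CHD4 is its ATP-dependent nucleosome remodeler. The complex also carries the histone deacetylases HDAC1 and HDAC2, which it shares with the SIN3A complex. CHD4 also occurs on chromatin without MBD3. NuRD is known to occupy active promoters and enhancers, and it is needed for ESCs to leave pluripotency. Its exact role in gene expression is not fully understood, and a hypothesis is that it adjusts expression rather than stably silencing genes.

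DNA strings recurred under the sites, and a few examples show what the counts further on refer to. All are mm9 sequence outside every annotated exon of GENCODE vM1, written 5′ to 3′ on the strand of the named gene. The first set shows the AP-1 string TGAGTCA in capitals, which reads TGACTCA from the opposite strand and is bound by FOS/JUN dimers. Rab11fip5, an endosomal recycling adaptor (chr6:85299437-85299497, minus strand, intron), and Lmna, the nuclear lamina protein lamin A/C (chr3:88296519-88296579, minus strand, intron), have sites of low CpG content. Myl6b, a myosin light chain (chr10:127935843-127935903, minus strand, upstream), and Mafg, a small MAF partner of bZIP factors (chr11:120494388-120494448, minus strand, intron), have CpG-rich ones.
Rab11fip5: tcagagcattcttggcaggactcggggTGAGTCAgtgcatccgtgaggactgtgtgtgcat
Lmna: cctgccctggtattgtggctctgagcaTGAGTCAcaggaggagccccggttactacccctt
Myl6b: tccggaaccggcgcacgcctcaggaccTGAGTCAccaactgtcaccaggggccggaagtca
Mafg: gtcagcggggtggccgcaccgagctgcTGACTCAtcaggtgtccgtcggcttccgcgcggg

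The second set shows CCACGCG in capitals, which reads CGCGTGG from the opposite strand and was picked after the sequences of these sites had been looked at. Its examples are the site with the highest NPC MBD3 value, at Ctcf (central 200 bp, chr8:108160096-108160295, plus strand, upstream), and the sites at Cdk13 (chr13:17897001-17897061, minus strand, upstream), Cnnm1 (chr19:43514780-43514840, plus strand, upstream), Fam38a (chr8:125075518-125075578, minus strand, intron) and Phospho1 (chr11:95685579-95685639, plus strand, intron). In the Phospho1 window an AP-1 string precedes it.
Ctcf: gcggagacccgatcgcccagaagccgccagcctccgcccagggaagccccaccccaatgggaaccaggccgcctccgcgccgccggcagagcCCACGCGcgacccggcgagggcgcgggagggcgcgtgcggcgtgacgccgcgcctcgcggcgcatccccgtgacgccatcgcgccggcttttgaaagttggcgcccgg
Cdk13: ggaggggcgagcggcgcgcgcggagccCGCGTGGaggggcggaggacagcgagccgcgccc
Cnnm1: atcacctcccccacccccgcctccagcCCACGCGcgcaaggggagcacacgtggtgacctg
Fam38a: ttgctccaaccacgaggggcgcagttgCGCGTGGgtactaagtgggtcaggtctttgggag
Phospho1: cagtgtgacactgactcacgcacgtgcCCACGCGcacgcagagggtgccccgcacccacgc

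Of the 2304 NPC MBD3 peaks, 1957 overlapped a CHD4 peak. The share was lower at promoters, where 318 of 530 MBD3 peaks (60.0%) had CHD4 and 212 did not, than away from promoters, where 1639 of 1774 (92.4%) had it. Both shares come from the peak calls that the rule used and are given as description. The 1639 sites away from promoters are called distal NuRD sites below. A second reference was the 2668 NPC CHD4 promoter peaks that overlapped no MBD3 peak. At gene level it was the 2398 genes with a CHD4 and no MBD3 peak at the promoter.

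Each peak carries the authors' own −log10 value, which ranks the peaks within a list. At the 318 sites the NPC MBD3 value ranged from 3.38 to 128 with a median of 9.33, and the NPC CHD4 value from 3.25 to 57.1 with a median of 10.3. CHD4 promoter peaks without MBD3 had a median CHD4 value of 8.08, and distal NuRD sites had a median MBD3 value of 8.76. The sites were narrow, with a median width of 229.5 bp.

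The sites centred on the TSS. Their median position was -3 bp, the quartiles were -201 and 177 bp, and 99 (31.1%), 195 (61.3%) and 265 (83.3%) lay within 100, 250 and 500 bp. By GENCODE vM1, midpoints fell in an untranslated exon at 90 sites, in a coding exon at 15, in an intron at 112 and upstream or between genes at 101. An intron here can belong to a longer transcript of the same gene or to an overlapping gene. The sites nearest to the limit of the rule were at Hmga1 (990 bp, MBD3 value 4.08), Furin (983 bp, 9.63) and S100a4 (980 bp, 6.95) on the inside. On the outside they were at Gpr149 (1001 bp, 8.28), Ap2a2 (1002 bp, 13.5) and Bhlhe40 (1006 bp, 3.47).

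**Figure D1:**
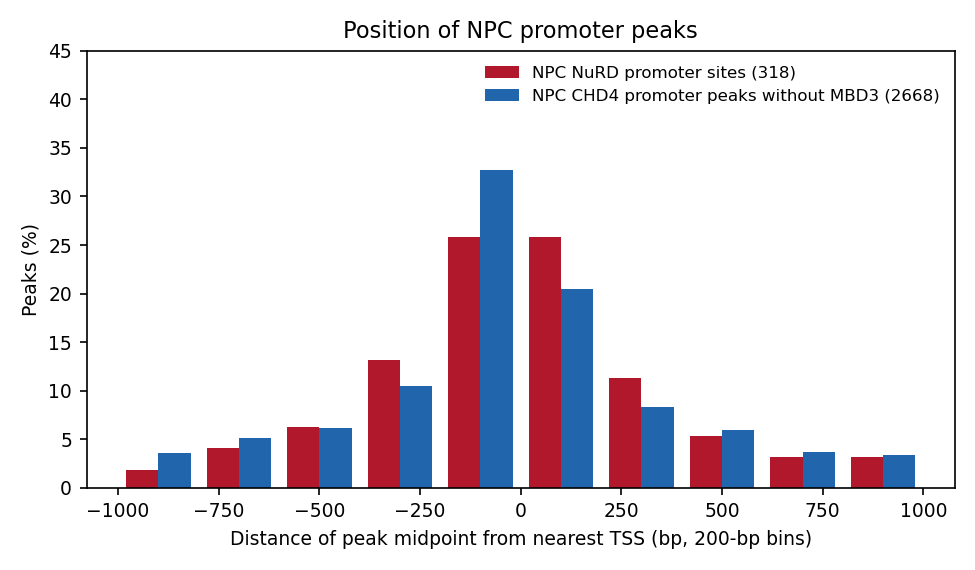
Share of peaks (%) per 200-bp bin of the distance between peak midpoint and nearest TSS, negative values upstream, for the 318 NPC NuRD promoter sites (red) and the 2668 NPC CHD4 promoter peaks without MBD3 (blue). Both peak at the TSS, and 83.3% of the NuRD sites against 78.8% of the CHD4 peaks lie within 500 bp.

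The sites were unevenly spread over chromosomes. Chromosome 3 held 32 of them (10.1%), 2.13 times its share of protein-coding genes, and chromosome 19 held 25 (7.86%), 2.43 times its share. Chromosome 7 held 12, or 0.408 times its share, and none lay on X, which has 4.17% of the genes. The MBD3, CHD4 and SIN3A results in ESCs kept their side of the threshold without chromosome 3 and without chromosomes 3 and 19.

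The main question was whether promoters with NuRD in NPCs also carried peaks in ESCs. A promoter counted as carrying an ESC peak when a peak midpoint lay within 1 kb of a protein-coding TSS of the gene. For counts of sites, only the TSS nearest to the site was used, except where direct overlap of peaks is given. In ESC MBD3 replicate 1, 64 of the 322 genes (19.9%, 95% Clopper-Pearson interval 15.7 to 24.7%) had a peak, against 2.18% of all genes. In MBD3 replicate 2, 98 did (30.4%, 25.5 to 35.8%), against 3.05%. CHD4 replicate 1 gave 95 (29.5%, 24.6 to 34.8%), against 8.02%. CHD4 replicate 2 is labelled wild type while its peaks are named after a Zfp219 BAC, and it gave 215 (66.8%, 61.3 to 71.9%), against 21.8%. All 4 shares were above the background, and the replicate with the longer list gave the higher share for each factor. These intervals cover counting error only, since the peak lists hold no read counts and NPCs had no replicate.

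SIN3A peaks were the most frequent. The list without spike-in marked 243 of the 322 promoters (75.5%, 70.4 to 80.1%), against 40.8% of all genes, and the list with spike-in marked 224 (69.6%, 64.2 to 74.5%), against 33.4%. GFP-ZFP296, a zinc finger protein, marked 12 (3.73%, 1.94 to 6.42%), against 2.68%, so its share did not stand clear of the background.

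**Figure D2:**
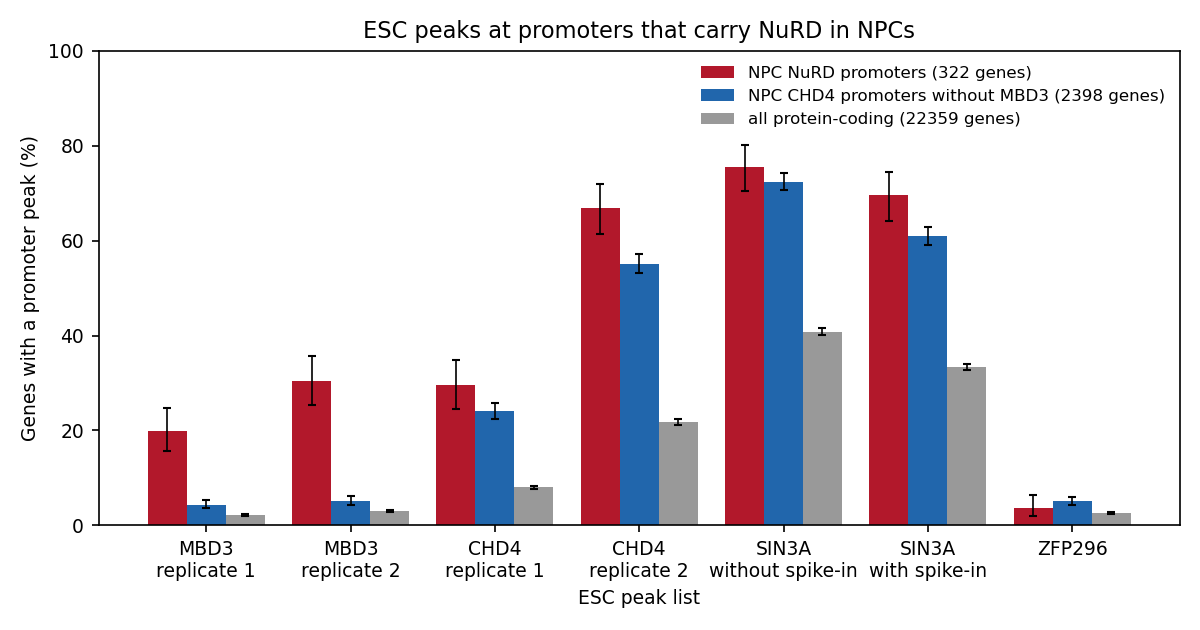
Share of genes (%) with a promoter peak in each of the 7 ESC lists, for the 322 genes with an NPC NuRD promoter site (red), 2398 genes with NPC CHD4 but no MBD3 at the promoter (blue) and all 22359 protein-coding genes (grey), with 95% Clopper-Pearson intervals. In MBD3 replicate 2 the shares are 30.4%, 5.13% and 3.05%, while in SIN3A without spike-in they are 75.5%, 72.4% and 40.8%.

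The ESC lists were then compared between NuRD promoters and NPC promoters with CHD4 alone, counting a factor as present when both of its lists had a peak (ZFP296 has only 1). ESC MBD3 was present at 42 of 322 NuRD promoters (13.0%) and at 34 of 2398 CHD4 promoters (1.42%), against 0.810% of all genes. The odds ratio was 10.4 (95% interval 6.35 to 17.2 by two-sided exact Fisher tests, adjusted p = 4.59e-20 over 8 tests). ESC CHD4 was present at 87 (27.0%) and 498 (20.8%), against 6.27% of all genes. Its odds ratio was 1.41 (1.07 to 1.85, exact adjusted p = 0.0185), and this call was lost when peaks below a value of 5 were dropped (1.20, adjusted p = 0.249) and when sites were counted in place of genes (1.32, adjusted p = 0.0558). With each list cut to its top 2304 peaks the odds ratio was 0.369 (exact adjusted p = 0.105), below 1. That cut also shortened the NPC CHD4 list from 20234 peaks, so it compared fewer NuRD promoters than the 322. ESC SIN3A was present at 211 (65.5%) and 1331 (55.5%), against 30.0% of all genes, with an odds ratio of 1.52 (1.19 to 1.96, exact adjusted p = 0.00101). This call was lost with lists of equal size (1.17, exact adjusted p = 0.930) and with the SIN3A list without spike-in alone (1.17, adjusted p = 0.294). For ZFP296 the shares were 3.73% and 5.09%, with an odds ratio of 0.722 (0.359 to 1.33, exact adjusted p = 0.338). Promoters of 1 list are not replicates of a condition, and neighbouring genes can share a promoter, so these p-values describe the lists and not the spread between cultures.

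The MBD3 difference was also seen within CpG-rich promoters, where the intervals did not overlap. There both ESC MBD3 lists marked 39 of 246 NuRD sites (15.9%, 11.5 to 21.0%) and 21 of 1760 CHD4 peaks (1.19%, 0.740 to 1.82%). A 500-bp window was called CpG-rich when its CpG observed/expected ratio exceeded 0.6 and its GC content 50%. Among the 72 NuRD sites outside CpG-rich windows, 0 had MBD3 in both ESC lists (upper bound 4.99%), against 17 of 908 CHD4 peaks (1.87%). For ESC CHD4 in both lists the shares were 29.3% of NuRD sites and 21.0% of CHD4 peaks in CpG-rich windows, and 11.1% and 19.2% outside them. For SIN3A they were 72.0% and 60.3% in CpG-rich windows, and 23.6% and 31.8% outside them. Outside CpG-rich windows both shares were thus lower at the NuRD sites. This split was made after the data had been seen, and the differences within it were not tested.

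Promoter and distal NuRD sites of NPCs were compared by direct overlap of the peaks. Both ESC MBD3 lists overlapped 31 of 318 promoter sites (9.75%) and 24 of 1639 distal sites (1.46%), with an odds ratio of 7.26 (4.06 to 13.1 by exact Fisher tests, adjusted p = 1.12e-11). Both CHD4 lists overlapped 58 (18.2%) and 53 (3.23%), an odds ratio of 6.67 (4.41 to 10.1, exact adjusted p = 3.09e-19). Both SIN3A lists overlapped 140 (44.0%) and 39 (2.38%), an odds ratio of 32.2 (21.6 to 48.7, exact adjusted p = 4.69e-86). ZFP296 overlapped 7 and 13 sites (2.20% and 0.793%), an odds ratio of 2.81 (exact adjusted p = 0.0366) that was 2.39 (adjusted p = 0.124) without chromosome 3. The 2 sets differ in promoter position, and these odds ratios were not separated from it. Of the 16170 peaks of SIN3A without spike-in, 11158 lay at promoters that held no NPC NuRD site. Where a promoter had an ESC peak, that peak overlapped the NPC site itself in 71.0% (MBD3 replicate 1) to 87.2% (MBD3 replicate 2) of sites.

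The sites fell into 4 exclusive classes by their ESC NuRD peaks. Class A had MBD3 and CHD4 in both ESC replicates and held 34 genes (10.6%, 7.42 to 14.4%), against 0.675% of all genes. Class B had CHD4 in both replicates, with MBD3 in at most 1 of them, and held 53 genes (16.5%). CHD4 in both replicates, with or without MBD3, marked 6.27% of all genes. Class C had another combination of MBD3 and CHD4 peaks and held 139 genes (43.2%). Class D had no peak in any of the 4 ESC NuRD lists and held 96 genes (29.8%, 24.9 to 35.1%), against 75.9% of all genes. Replicates differed in list length, with 29974 CHD4 peaks in replicate 2 and 11712 in replicate 1. The class shares rested on which ESC replicates were used, as class D was 32.3% without replicate 1 and 65.2% without replicate 2, class C 0.932% and 5.28%, class A 29.5% and 14.6%, and class B 37.3% and 14.9%. With 1 list per factor, class C can by definition hold only MBD3 without CHD4. By site the classes held 32, 48, 137 and 101. SIN3A was in both ESC lists at 29 of the 32 class A sites (90.6%), 35 of 48 in B (72.9%), 96 of 137 in C (70.1%) and 34 of 101 in D (33.7%, 24.6 to 43.8%), against 30.0% of all genes. The class D interval includes that background, which counts peaks at any TSS of a gene while the site shares use the nearest TSS. ZFP296 peaks were few, at 2, 3, 3 and 1 sites. Of the 318 sites, 55 (17.3%) had a promoter peak in none of the 7 ESC lists and 2 had one in all of them, among them the site at Kdelc2.

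**Figure D3:**
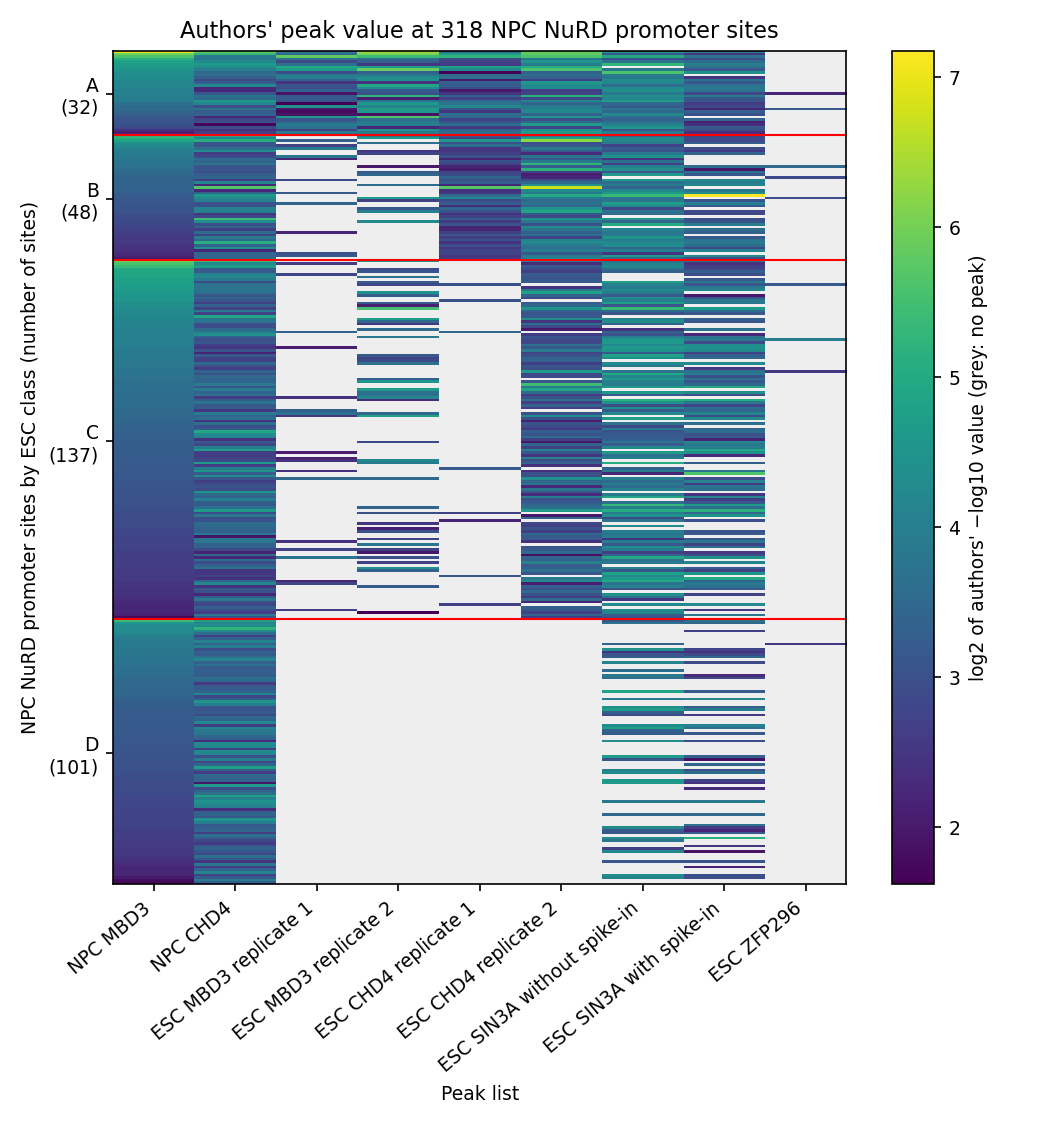
Authors' −log10 value of the peak at each of the 318 NPC NuRD promoter sites (rows) in the 9 lists (columns), on a log2 colour scale, with grey for no peak. Rows are grouped by ESC class A to D (32, 48, 137 and 101 sites, red lines) and ordered by NPC MBD3 value within a class. Class D is empty in the 4 ESC NuRD columns by definition. Of its 101 sites, 34 (33.7%) have peaks in both SIN3A lists at the nearest TSS, against 30.0% of all genes at any of their TSSs.

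In class A, Ctcf, the insulator protein, had the highest NPC MBD3 value of all sites (128, chr8:108160018-108160373, midpoint 283 bp upstream), with MBD3 values of 15.4 and 80.3 in ESC replicates 1 and 2, CHD4 values of 11.8 and 58.5, and SIN3A values of 22.0 without and 16.5 with spike-in. Ezh2, the methyltransferase of Polycomb repressive complex 2, had an NPC MBD3 value of 48.4 (chr6:47544227-47544512, intron), ESC MBD3 values of 55.4 and 42.7 and ESC CHD4 values of 37.8 and 48.8. Its ESC MBD3 value in replicate 1 was the highest in that list. Esco1, a cohesin acetyltransferase (NPC MBD3 value 63.4), Nfic, a nuclear factor I protein (34.8), and Bend3, a chromatin repressor (28.7), completed the 5 highest. Each of the 5 had peaks in both SIN3A lists and none had a ZFP296 peak.

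The class B site with the highest NPC MBD3 value was at Zfat, a zinc finger gene (38.9). It had MBD3 in ESC replicate 2 (14.1) but not replicate 1, and CHD4 in both (9.63 and 13.8). Slc39a13, a zinc transporter (36.8), Fam38a, the mechanosensitive channel PIEZO1 (29.8), Vat1 (21.2) and Cebpb, a bZIP transcription factor (19.1), followed. All 5 carried an MBD3 peak in 1 of the ESC replicates, so the class boundary rested on a single list at these sites.

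In class C, Sec24b, a cargo-binding subunit of the COPII coat, led with 63.6 and had MBD3 and CHD4 in ESC replicate 2 alone (24.5 and 17.5). Cdk13, a kinase of the RNA polymerase II tail (48.6), had MBD3 in replicate 1 (6.04) and CHD4 in replicate 2 (4.92). Phospho1, a phosphatase of bone mineralisation (41.1), had CHD4 in replicate 2 alone (8.89). Pogz, a chromatin factor (32.1), and 0610010K14Rik (31.1) had MBD3 and CHD4 in replicate 2 alone. All 5 had peaks in both SIN3A lists.

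Class D held the promoters with no ESC NuRD peak. Cnnm1, a member of the family of magnesium transport mediators, led with an NPC MBD3 value of 42.6, and Nr3c1, the glucocorticoid receptor, followed with 23.3. Both had SIN3A peaks in both ESC lists, with values of 8.39 and 13.2 at Cnnm1 and of 13.2 and 10.9 at Nr3c1. Rab11fip5 (19.995) and Obfc1, a telomere-capping protein (19.7), had no peak in any ESC list. Sema3c, a secreted guidance cue (19.1), had only a SIN3A peak with spike-in (6.35).

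The NPC MBD3 value was highest in class A. Its median was 16.7 in class A, 9.12 in B, 9.73 in C and 8.32 in D. With the sites cut by that value into 3 groups of 106, MBD3 was in both ESC lists at 19.8% of the highest group, 12.3% of the middle and 4.72% of the lowest. The shares were 32.1, 23.6 and 19.8% for CHD4 and 67.9, 62.3 and 52.8% for SIN3A. These are descriptions without a test, because the value comes from the library that chose the sites.

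Base composition separated the sites from the references. CpG-rich windows made up 246 of 318 NuRD sites (77.4%, 72.4 to 81.8%), 1760 of 2668 CHD4 peaks (66.0%), 80 of 1639 distal NuRD sites (4.88%) and 47.3% of all 45961 TSS windows. Against the CHD4 peaks the odds ratio was 1.76 (1.33 to 2.35 by two-sided exact Fisher tests, adjusted p = 5.86e-05). Median GC content was 67.7% at the sites, 61.8% at CHD4 peaks, 49.6% at distal sites and 57.6% at all TSSs. Promoters with TSSs on both strands within 1 kb were 5.66% of the sites and 7.08% of CHD4 peaks (odds ratio 0.787, 0.450 to 1.30, exact adjusted p = 0.413), against 10.4% of all TSSs.

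Strings of 10 factors were searched on both strands of the central 200 bp. They were AP-1 TGAGTCA, CRE TGACGTCA, ETS CCGGAAG, NRF1 GCGCATGCG, SP/KLF GGGCGG, NF-Y CCAAT, YY1 AAGATGGCG, the E-box CACGTG, SOX CCATTGT and the octamer ATGCAAAT. The SP/KLF string, a GC box, was in 58.8% of the NuRD sites and 45.2% of CHD4 promoter peaks (odds ratio 1.73, 1.36 to 2.21 by exact Fisher tests, adjusted p = 3.79e-05 over 20 tests), against 38.6% of all TSSs. The ETS string was in 5.35% and 11.2% (odds ratio 0.449, 0.254 to 0.745, exact adjusted p = 0.00314), against 8.59% of TSSs, but missed the threshold in the central 100 bp (0.489, adjusted p = 0.0889) and 500 bp (0.696, adjusted p = 0.0633). The NF-Y string was in 9.75% and 14.5%, against 24.5% of TSSs. It missed the threshold (odds ratio 0.637, exact adjusted p = 0.0518) but passed it in the central 500 bp (0.725, adjusted p = 0.0263) and without chromosome 3 (0.617, adjusted p = 0.0473). The other 7 strings did not pass against CHD4 peaks in the central 200 bp. YY1 was in 0 of 318 sites (upper bound 1.15%), against 0.975% of CHD4 peaks.

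The AP-1 string separated promoter from distal sites of the same MBD3 list. The string was in 42 of 318 promoter sites (13.2%, 9.69 to 17.4%) and 992 of 1639 distal sites (60.5%), an odds ratio of 0.0994 (0.0690 to 0.140 by exact Fisher tests, adjusted p = 4.14e-57). Against CHD4 promoter peaks (10.1%) the odds ratio was 1.35 (0.930 to 1.93, exact adjusted p = 0.189), and in the central 500 bp it was 1.55 (adjusted p = 0.0137). Only 2.61% of TSS windows held it. SP/KLF and ETS strings were more frequent at promoter than at distal sites (odds ratios 13.4 and 4.15), and NF-Y and SOX strings less frequent (0.498 and 0.245), all past the threshold, but SOX missed it in the central 100 bp (0.241, exact adjusted p = 0.0901).

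**Figure D4:**
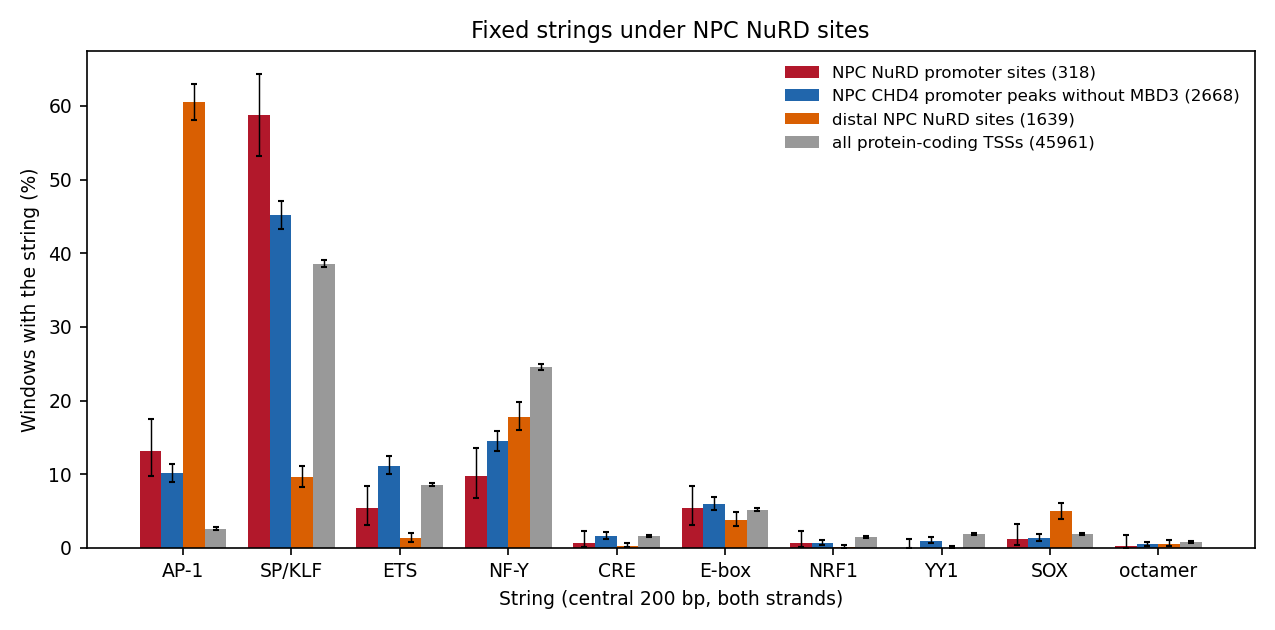
Share of 200-bp windows (%) that hold each of 10 strings, at the 318 NPC NuRD promoter sites (red), 2668 NPC CHD4 promoter peaks without MBD3 (blue), 1639 distal NPC NuRD sites (orange) and 45961 TSSs (grey), with 95% Clopper-Pearson intervals. AP-1 is in 13.2% of promoter and 60.5% of distal NuRD sites, and the GC box of SP/KLF factors in 58.8% and 9.58%.

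Sequence also differed among the NuRD promoter sites by their state in ESCs. Of the 101 sites with no ESC NuRD peak, 24 (23.8%) held the AP-1 string, against 18 of 217 (8.29%) with at least 1 such peak (odds ratio 3.43, 1.68 to 7.12 by two-sided exact Fisher tests, adjusted p = 0.00108 over 11 tests). They were CpG-rich in 50.5% and 89.9% of cases (odds ratio 0.116, 0.0609 to 0.215, exact adjusted p = 5.84e-13) and held the SP/KLF string in 40.6% and 67.3% (odds ratio 0.334, 0.198 to 0.557, adjusted p = 5.12e-05). The SP/KLF call was lost in the central 100 bp (0.608, exact adjusted p = 0.219). Within CpG-rich sites the SP/KLF string was in 37 of 51 without an ESC NuRD peak (72.5%) and 134 of 195 with one (68.7%). Outside CpG-rich windows it was in 4 of 50 (2.22 to 19.2%) and 12 of 22 (32.2 to 75.6%). The lower SP/KLF share without an ESC NuRD peak was thus seen only outside CpG-rich windows, in a split that was not tested. Without ESC CHD4 replicate 2, added after the data had been seen, 173 sites (54.4%) had no ESC NuRD peak. AP-1 was then in 17.9% of them and 7.59% of the others (odds ratio 2.65, exact adjusted p = 0.0415), CpG-rich windows kept their call (0.171, exact adjusted p = 9.36e-08), and SP/KLF lost it (0.632, exact adjusted p = 0.191). Median CpG observed/expected ratios were 0.931, 0.873, 0.877 and 0.630 in classes A to D.

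AP-1 strings and CpG content went together. The string was in 28 of 72 sites outside CpG-rich windows (38.9%, 27.6 to 51.1%) and in 14 of 246 CpG-rich sites (5.69%, 3.15 to 9.36%). Within CpG-rich sites, 3 of 51 without an ESC NuRD peak (5.88%) and 11 of 195 with one (5.64%) held it. Outside them the counts were 21 of 50 (42.0%, 28.2 to 56.8%) and 7 of 22 (31.8%, 13.9 to 54.9%), whose intervals overlapped. Outside CpG-rich windows 22.2% of CHD4 promoter peaks and 62.7% of distal NuRD sites held the string. These splits by CpG content were added after the data had been seen and were not tested.

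**Figure D5:**
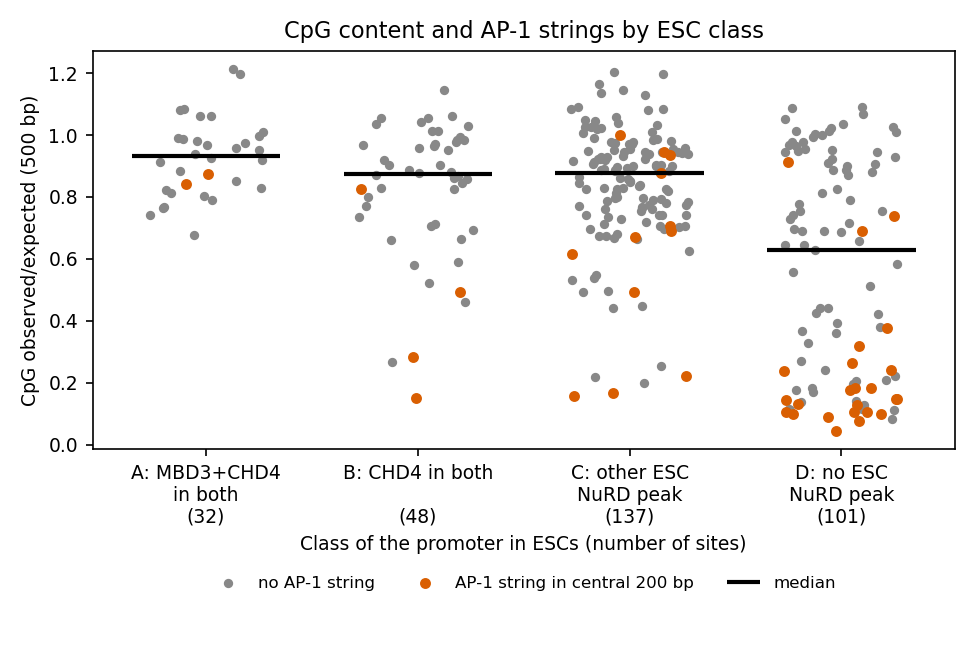
CpG observed/expected ratio in 500 bp at each NPC NuRD promoter site by ESC class (A, 32 sites; B, 48; C, 137; D, 101), with sites that hold the AP-1 string in their central 200 bp in orange and the class median as a bar. The medians are 0.931, 0.873, 0.877 and 0.630, and 24 of the 42 orange sites are in class D, most of them at low ratios.

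Named AP-1 sites differed in their ESC state. Rab11fip5 had no ESC peak in any list. Mafg (NPC MBD3 value 22.9) had an ESC CHD4 peak in replicate 1 alone (8.13), and Phospho1 in replicate 2 alone. Mt2, the metallothionein that buffers zinc and copper (18.1), was in class A, with ESC MBD3 values of 5.45 and 5.32 and CHD4 values of 10.03 and 23.9. Myl6b (16.8) had MBD3 and CHD4 in ESC replicate 2 (11.9 and 4.05), and Lmna (15.5) had CHD4 in both replicates (5.65 and 8.93) and MBD3 in replicate 2 (5.75). Among the 42 sites with the string, SIN3A was in both ESC lists at 16 (38.1%), against 178 of 276 (64.5%) without it. CpG content differed as well, since 28 of the 42 lay outside CpG-rich windows. SIN3A was in both lists at 17 of 72 sites outside such windows (23.6%) and at 177 of 246 CpG-rich ones (72.0%). The contrast by AP-1 string was not separated from CpG content.

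The string CCACGCG shown above was in 85 of 318 NuRD promoter sites (26.7%, 21.9 to 32.0%), 148 of 2668 CHD4 promoter peaks (5.55%), 42 of 1639 distal NuRD sites (2.56%) and 2.90% of all TSS windows. Because it was picked from these sequences, the shares are a description. The related string GCGTGGG, the core of the EGR1 binding site, overlaps it by 6 letters on the opposite strand and was in 97 sites (30.5%), 58 of which held both. CCACGCG without that second string was in 27 sites. The rearranged strings CGCCACG and CACGCCG, with the same letters, were in 8.49% and 8.81% of the sites and in 4.46% and 3.97% of CHD4 peaks. Within CpG-rich windows CCACGCG was in 33.7% of promoter sites, 7.56% of CHD4 peaks and 32.5% of 80 distal NuRD sites. MBD3 promoter peaks without CHD4 in NPCs held it at 27.8% of 212.

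The string was then tested in ESC lists at promoters without an NPC NuRD site, which had no part in its choice. In ESC replicate 1, it was in 23 of 187 MBD3 promoter peaks with CHD4 (12.3%) and in 78 of 1659 CHD4 promoter peaks without MBD3 (4.70%). The odds ratio was 2.84 (1.66 to 4.72 by two-sided exact Fisher tests, adjusted p = 0.000301 over 8 tests). In replicate 2 the shares were 8.59% and 4.89% (odds ratio 1.83, 1.27 to 2.58, exact adjusted p = 0.00183). GCGTGGG gave odds ratios of 3.19 and 2.00 (exact adjusted p = 4.71e-06 and 6.17e-06). The rearranged strings did not pass in either replicate, with odds ratios from 0.771 to 1.63 and exact adjusted p of at least 0.299. Within CpG-rich windows CCACGCG was in 24.4% against 8.19% in replicate 1 and 18.8% against 6.80% in replicate 2, without a test.

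By ESC class the string was in 37.5% of class A, 16.7% of B, 34.3% of C and 17.8% of D. Within CpG-rich sites it was in 17 of 51 without an ESC NuRD peak (33.3%) and 66 of 195 with one (33.8%). Outside them 1 of 50 (2.00%) and 1 of 22 (4.55%) held the string, and these shares were not tested. Of the 85 sites that held it, MBD3 was in both ESC lists at 18 (21.2%, 13.1 to 31.4%), against 21 of 233 without it (9.01%, 5.67 to 13.4%). Of the 85, 83 were CpG-rich, and MBD3 was in both ESC lists at 39 of 246 CpG-rich sites (15.9%) and 0 of 72 others. The MBD3 contrast by string was not separated from CpG content. The share of sites with the string was 34.0, 28.3 and 17.9% from the highest to the lowest of the 3 groups by NPC MBD3 value. Among the 20 sites named by class, Ctcf, Esco1 and Nfic of class A, Fam38a of class B, Cdk13, Phospho1 and 0610010K14Rik of class C and Cnnm1 and Sema3c of class D held it.

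Gene groups were counted at these promoters against the 1.44% of all genes that have such a site. Of 20 subunits of the SIN3, CoREST and Polycomb complexes, 3 had an NPC NuRD site, Ezh2, Ring1 (12.1), a Polycomb ubiquitin ligase, and Jarid2 (8.09), a partner of Polycomb repressive complex 2. Of 26 AP-1 and immediate early genes, 2 had one, Mafg and Atf3 (6.56), a stress-induced bZIP factor. Among 33 adhesion and cytoskeleton genes these were the actin crosslinker Flnc (15.0), Tagln2 (7.02) and the fibronectin receptor subunit Itga5 (6.86). Among 32 neural progenitor genes they were the receptor Notch1 (15.2) and the hyaluronan receptor Cd44 (7.02). Of 371 Zfp genes 7 had a site, or 1.89%, with Zfp341 (10.6) the highest. Sec24b was the single one of 45 secretion genes and Eif4e (8.998), the cap-binding protein, of 67 translation factors. The lists are small, and these counts were not tested.

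Several housekeeping lists had no such site. None of 84 cytosolic ribosomal protein genes, 92 respiratory chain genes, 42 proteasome subunits, 65 splicing factors and 76 histones had an NPC NuRD promoter site. These 5 lists were pooled because each was at 0, so their 0 of 359 was fixed by that choice and bounds no share. Of the 359 genes, 38 (10.6%) had an NPC CHD4 promoter peak, against 12.4% of all genes. Of 67 translation factor genes 1 had a site, Eif4e, and of 45 protein secretion genes 1 had one, Sec24b. Among 29 pluripotency genes 0 had an NPC NuRD site (upper bound 11.9%) and 0 an NPC CHD4 promoter peak, while 15 had CHD4 in both ESC lists. Among 15 genes for NuRD subunits 0 had such a site (upper bound 21.8%) and 3 had an NPC CHD4 promoter peak. Of 1441 olfactory and vomeronasal receptor genes, which are used in sensory neurons, 0 had a site (upper bound 0.256%) and 1 a CHD4 peak.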

How the data were processed

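Peak lists of 9 of 36 mouse ChIP-seq samples were used, and 27 samples were not analysed here. Per the study's methods and the labels, the authors mapped reads to mm9, removed duplicates and called peaks per library with MACS. The deposited lists carry a −log10 value per peak, and the sources used here leave unsaid whether p or q-values underlie it. It ranked peaks within a list only. Peak names give a threshold of 0.0001 for SIN3A without spike-in and 0.001 otherwise, and mention an equal number of reads except in both SIN3A lists. Lists held from 2304 to 29974 peaks. Read depth behind each peak was unknown.

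Protein-coding TSSs came from GENCODE vM1 and sequence from NCBIM37, the same build as mm9. Chromosomes 1 to 19, X and Y were used. Genes, or for the comparison with distal sites and for sequence the peaks, were compared by two-sided Fisher's exact tests. Benjamini-Hochberg adjustment was applied within families of 8 (ESC lists), 20 (strings), 11 (sites by ESC class), 2 (promoter type) and 8 (added strings) tests, with a threshold of 0.05. Shares carry 95% Clopper-Pearson intervals. Overlap, promoter assignment and tests were checked on simulated peaks. Python 3.11.15, numpy 2.4.6, scipy 1.17.1, pandas 2.3.3 and pyfaidx 0.9.0.4 were used.

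Named were the 5 sites with the highest NPC MBD3 value per class, up to 4 genes per gene list, sites in all 7 ESC lists (of which 1 is not reported here), the 6 AP-1 sites with the highest value and 3 sites on each side of the 1 kb limit. Members, gene lists and strings were chosen with earlier results of these data known. The string CCACGCG, its EGR-type relative and its rearrangements and the splits by CpG content were added after the data had been seen. Alternatives were other TSS sets, windows of 500 bp and 2 kb, values of at least 5, lists of equal size, a fraction of 0.5 of the peak covered, each replicate or SIN3A list alone, no chromosome 3, other string windows, stricter CpG limits and, added later, no chromosomes 3 and 19.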

Additional observations from a re-analysis of the deposited data

How the results depend on the processing

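No paired analysis was possible because the results are overlaps of peak lists and come from no test across samples. Of the results that answer a comparison, 94 values under alternatives kept their direction and side of the threshold or stayed within the margin, 7 kept the direction but lost the threshold, 11 moved and 2 reversed. With lists of equal size the odds ratio of ESC MBD3 against CHD4 promoters was not finite, since no CHD4 promoter had a peak in both lists. The odds ratio of ESC MBD3 at NuRD against CHD4 promoters lay between 5.41 and 8.08 with 1 replicate left out. For ESC CHD4 it was 1.20 with values of at least 5, 1.32 by site and 0.369 with lists of equal size (2304 peaks), a reversal. For SIN3A the call was lost with lists of equal size (1.17) and with the list without spike-in alone (1.17). For ZFP296 it was 1.02 with lists of equal size, a reversal of a value that passed no threshold, and against distal sites 2.31 with lists of equal size, 2.39 without chromosome 3 and 1.72 with a fraction of 0.5 of the NPC peak covered. Class A was 7.12% with values of at least 5, and with lists of equal size class A was 3.28%, class B 3.28% and class D 54.1%. Both settings also cut the NPC lists, so these shares are of fewer genes. With 1 replicate left out, class A was 14.6 to 29.5%, class B 14.9 to 37.3%, class C 0.932 to 5.28% and class D 32.3 to 65.2%, where leaving out replicate 2 gave the higher share of class D. In the central 100 bp, 1 string differed from CHD4 peaks, in place of 2, and 3 differed in the central 500 bp and without chromosome 3. The cause of these changes was not tested. By construction, fewer peaks enter an equal-sized list, and with 1 list per factor class C can hold only promoters with MBD3 and no CHD4. Peak lists without read counts limit every share to called peaks, and a promoter without a call can still be occupied.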
